A study of Mus musculus with 22 samples.

Results

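The cytosolic ribosomal protein genes were taken as the protein-coding genes whose mouse symbol is Rpl or Rps followed by a number and at most an a or an x, together with Rplp0, Rplp1, Rplp2 and Rpsa. This gave 76 genes out of 37680 gene IDs, of which 45 encode proteins of the large subunit and 31 of the small subunit. All 76 had enough counts to be tested in each comparison. No measured value entered the choice. Fau and Gnb2l1 also encode ribosomal proteins but carry other symbols, so they are given apart from the 76.

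The study sequenced RNA of whole mouse embryos to find the genes that depend on induction of Oct4 or Nanog, transcription factors that maintain pluripotency. The 22 libraries fall into 8 groups by line, stage (embryonic day 7.5 or 9.5, E7.5 or E9.5) and doxycycline. The Oct4 line had the genotype ROSA26tg/+; Oct4tg/+ and the Nanog line ROSA26tg/+; Nanogtg/+, both on C57BL/6, and the controls of a line carried the same alleles as its induced embryos but had no doxycycline. For E7.5, mothers were injected with doxycycline at E4.5 and then drank it until collection, and for E9.5 they drank it from E6.5. Each line and stage had 3 induced libraries, and there were 3 control libraries for the Oct4 line at each stage but 2 for the Nanog line. A library is a pool of 8 to 12 embryos at E7.5 or of 3 embryos at E9.5, so p-values measure the spread between pools. The promoter that drives each transgene and the cells that express it are not given in the sources used here, and no group received doxycycline without a transgene.

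Ribosomal proteins join ribosomal RNA to build the large subunit, which forms peptide bonds, and the small subunit, which reads the messenger RNA. Their messages are among the most abundant of growing cells, and most begin with a run of pyrimidines, the terminal oligopyrimidine motif, through which mTOR signalling adjusts their translation. Early embryos before and during gastrulation divide fast and rely on abundant ribosome synthesis, and mutations in single ribosomal protein genes give tissue-restricted defects, such as those of the axial skeleton in Rpl38 mutants.

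The libraries held between 4.72 and 42.3 M counts (M, mega) each. Pou5f1, the gene of Oct4, was at 203 to 242 CPM (counts per M counts of a library) in Oct4 E7.5 controls and 477 to 606 in induced pools, and at 0.423 to 1.29 against 257 to 283 at E9.5. Nanog was at 17.2 and 22.8 CPM in Nanog E7.5 controls and 53.9 to 117 in induced pools, and at 2.06 and 2.35 against 348 to 354 at E9.5, so both targeted genes followed the labels. Summed markers of embryonic tissues also differed between control and induced pools, in both lines. At E7.5 the 6 markers of visceral endoderm and yolk sac (Afp, Apoa1, Apob, Ttr, Rbp4, Amn) summed to 2385 and 2565 CPM in Nanog controls and 1065 to 1524 in Nanog induced pools, and 5 epiblast markers other than Pou5f1 to 870 and 874 against 1987 to 2251. Models shorter than 80 nt, a class that depends on library preparation and read handling, held 31.3 and 36.8 CPM in Nanog E7.5 controls but 0.575 to 1.13 in Nanog E7.5 induced pools. At E9.5 5 primitive erythroid markers (Hbb-bh1, Hbb-y, Hba-x, Hba-a1, Alas2) summed to 5323 and 7143 CPM in Nanog controls and 1665 to 2237 in Nanog induced pools. In the Oct4 line the 5 epiblast markers summed to 749 to 901 CPM in E7.5 controls and 1431 to 2213 in induced pools. At E9.5 its erythroid markers summed to 4988 to 6522 CPM in controls and 7203 to 8841 in induced pools. In libraries of whole embryos, fewer cells of a type and less RNA per cell cannot be told apart.

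The sequence around the annotated start of transcription was searched for the pyrimidine run and for other short motifs. RefSeq promoter windows (GRCm38.p6) were matched for 55 of the 76 genes, with 65 windows of 300 bases, 250 before and 50 after the annotated start. The motif CGGAAG, the core bound by ETS factors (reverse strand CTTCCG), was found on either strand in 61.5% of the member windows and in 16.9% of all 32851 windows of this length. A run of at least 8 pyrimidines within 20 bases of the annotated start was present in 44.6% of the member windows and 16.0% of all windows. The pyrimidine words CTTTCC and CTTTTC can lie within such a run and were searched on both strands. The first was found in 49.2% of member windows against 26.6% of all, and the second in 26.2% against 21.8%. The TATA box core TATAAA, again on either strand, was found in 9.23% against 13.6%. A match in these windows is a description of the letters and not a measured start or binding site. The windows of 5 genes on which the results below turn, and of Rpl15, which has a long run, are printed from 40 bases before to 20 after the annotated start, 5′ to 3′ on the gene's strand, with the longest pyrimidine run near the start in capitals. They lie at chr9:120127726-120127785 on the plus strand (Rpsa), chr17:24720023-24720082 on the plus strand (Rps2), chr7:116334171-116334230 on the minus strand (Rps13), chr7:141447611-141447670 on the plus strand (Rplp2), chr8:123102310-123102369 on the plus strand (Rpl13) and chr14:18270967-18271026 on the minus strand (Rpl15).
Rpsa: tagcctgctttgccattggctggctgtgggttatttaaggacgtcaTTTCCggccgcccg
Rps2: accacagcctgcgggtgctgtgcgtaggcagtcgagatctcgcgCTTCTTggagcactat
Rps13: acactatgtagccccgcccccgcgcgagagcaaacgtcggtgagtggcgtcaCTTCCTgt
Rplp2: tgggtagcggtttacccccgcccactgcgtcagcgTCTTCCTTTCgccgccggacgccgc
Rpl13: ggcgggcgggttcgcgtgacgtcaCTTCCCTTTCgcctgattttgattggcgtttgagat
Rpl15: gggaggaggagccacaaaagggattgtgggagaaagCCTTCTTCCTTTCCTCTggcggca
The run measured 17 bases in Rpl15, 10 in Rplp2 and in Rpl13, 6 in Rps2 and in Rps13 and 5 in Rpsa. It began 4 bases before the annotated start in Rpl15 and 5 before it in Rplp2, but 16 before it in Rpl13 and 13 after it in Rps13, so the annotated starts of these genes are not placed alike relative to the run.

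The 76 genes differed widely in level. Over the control pools, Rpl4 and Rplp0 held the most counts, with means over the 4 control groups of 2190 and 2055 CPM, and Rpl21 the fewest, with 69.5 CPM. Rpl4 and Rpl21 are both large-subunit proteins, and Rplp0 anchors the P stalk, the arm of the large subunit that recruits elongation factors. Within a group the highest member exceeded the lowest by 27.1-fold to 40.3-fold. Per kilobase of exonic length, Rplp1, a P-stalk protein, ranked first at 2255 CPM per kb, followed by Rps12 at 2235, Rpl4 at 1540, Rpl32 at 1497 and Rps26 at 1285. The lowest on this scale were Rpl21 at 20.4 CPM per kb, Rpl5 at 25.01, Rpl27a at 42.6, Rpl10a at 67.8 and Rpl27 at 77.4. Exonic length here counts the exons of all isoforms. By coding length Rpl5 and Rpl21 were again the lowest, at 110 and 144 CPM per kb of coding sequence, and Rplp1 again the highest at 3235. Reads of these genes can be shared with their processed copies. Rows named after a member with the suffix -ps held 81.0% of the joint counts of Rpl10a, 77.0% of Rpl27, 58.3% of Rpl15, 48.3% of Rps2, 47.6% of Rpl34, 45.2% of Rpl3 and 30.6% of Rpsa. For Rpl21 that share was 0.523%. Copies annotated under other symbols were not counted, so reads shared with them are not measured here.

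The 76 genes together held between 4.33% and 7.42% of the counts of a library. In the Oct4 line at E7.5 the share was 6.00, 6.30 and 6.34% in the controls and 6.15, 7.42 and 6.56% in the induced pools, and the groups overlapped. In the Nanog line at E7.5 it was 5.41 and 5.25% in the controls and 6.10, 6.05 and 6.71% in the induced pools, which all lay above the controls. At E9.5 the Oct4 controls were at 4.48% ± 0.0139 (SD, n = 3) and the induced pools at 4.501% ± 0.0721 (n = 3), while the Nanog controls were at 4.33 and 4.504% and the induced pools at 4.76, 4.71 and 4.76%. Exact two-sided permutation tests over pools gave p = 0.3 for Oct4 and p = 0.1 for Nanog at E7.5, and p = 0.8 and p = 0.1 at E9.5, with 0.1 the smallest p these group sizes allow. From E7.5 to E9.5 the control share went from a mean of 6.21% to 4.48% in the Oct4 line (exact permutation test, p = 0.1, the smallest possible) and from 5.33% to 4.42% in the Nanog line (p = 0.333, the smallest possible with 2 pools against 2). Adjusted over these 6 comparisons, the p-values were 0.2 or higher. The controls of the lines also stood apart at E7.5, the 3 Oct4 pools between 6.00 and 6.34% and both Nanog pools at 5.41% or below.

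**Figure D1:**
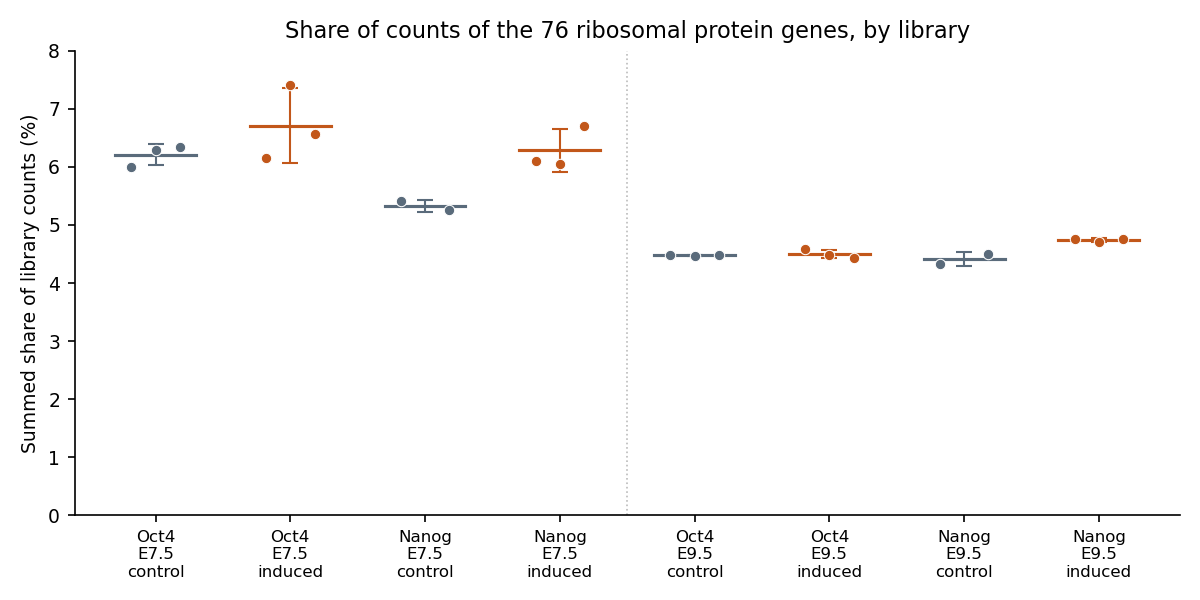
Share of each library's counts held by the 76 ribosomal protein genes (y axis, percent), by group; points are pools of embryos, long bars are means and error bars are SD. The E7.5 pools sit between 5.25 and 7.42% and the E9.5 pools between 4.33 and 4.76%.

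Both subunits carried the change of the sum in the Nanog line at E7.5, but not in equal measure. The ratio of large-subunit to small-subunit counts was 1.33 ± 0.00731 (SD, n = 2) in Nanog E7.5 controls and 1.23 ± 0.0394 (n = 3) in induced pools, which lay wholly below the controls (exact two-sided permutation test, p = 0.1, the smallest possible). In the Oct4 line at E7.5 the ratio was 1.24 ± 0.0144 in controls and 1.25 ± 0.0428 in induced pools, and these overlapped (n = 3 and 3, exact permutation p = 0.6). At E9.5 the ratio moved less but the groups did not overlap in either line. It was 1.24 ± 0.00328 in Oct4 controls and 1.26 ± 0.0115 in induced pools (n = 3 and 3, exact permutation p = 0.1, the smallest possible), and 1.26 ± 0.00667 in Nanog controls and 1.28 ± 0.00740 in induced pools (n = 2 and 3, exact permutation p = 0.2). Adjusted over the 6 comparisons of this ratio, the p-values were 0.3 or higher.

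Induction of Oct4 until E7.5 changed 1 of the 76 genes past the threshold. Rps3a, a small-subunit protein near the messenger RNA exit, rose from 1129, 1223 and 1203 CPM in the controls to 1484, 1677 and 1673 CPM in the induced pools. The pools did not overlap, and the log2 fold change was 0.48 (SE 0.10, edgeR adjusted p = 0.0221). Over all 16071 genes tested, 6.17% were called in this comparison, 2.25% higher and 3.91% lower, so 1 call among 76 genes is below the background. Of the 76, 9 had an unadjusted p under 0.05. The member fold changes were nonetheless close together, with 75 of 76 above 0 and a median of 0.13, against a median of 0.02 over all genes tested. Lists followed further below had medians near it: 0.14 for 51 ribosome biogenesis genes, 0.11 for 76 mitochondrial ribosomal protein genes and 0.11 for 31 initiation factor genes. The 11 genes of the mTOR and Myc pathways were at 0.03. In the 6 fits that left out a pool, the member median ran from 0.018 to 0.23. The induced pools lay above the controls for 11 members and below them for 0, where 8.72% and 14.3% of all genes did so. Rpl3, a core protein that reaches towards the peptidyl transferase center, was next with 1080, 943 and 800 CPM in controls and 1264, 1261 and 1234 CPM in induced pools, a log2 difference of 0.45 that missed the threshold (edgeR adjusted p = 0.0505). The call of Rps3a was lost in 4 of the 6 fits that left out a pool (highest adjusted p 0.108), those without a control or without induced replicate 3. The higher epiblast markers given above separate the same pools, while the summed markers of the other 6 tissues overlapped, and their part in the Rps3a result was not tested.

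Induction of Nanog until E7.5 raised 19 of the 76 genes and lowered 0, where 7.78% of the 14118 genes tested were called, 2.96% higher and 4.82% lower. The calls fell in both subunits, 10 in the large and 9 in the small. Rpsa, the small-subunit protein that also serves as a laminin receptor, had the highest value, with 1032 and 936 CPM in the controls and 1571, 1576 and 1894 CPM in the induced pools. Its log2 fold change was 0.82 (SE 0.12, edgeR adjusted p = 0.00503). Rps2, a small-subunit protein at the messenger RNA entry, was at 543 and 514 CPM in controls and 869, 876 and 936 CPM in induced pools, with a log2 fold change of 0.81 (SE 0.09, adjusted p = 0.00191). Rps13, another small-subunit protein, was at 215 and 180 CPM against 349, 344 and 274 CPM. For these 3 genes the induced pools lay wholly above both controls. Other large values were those of Rpl29 (log2 fold change 0.74), the P-stalk protein Rplp2 (0.71), Rpl7a (0.67), Rps16 (0.64), Rpl17 (0.57) and Rpl35 (0.54). Further calls ran from 0.39 in Rps19, which is mutated in Diamond-Blackfan anemia, to 0.50 in Rpl37, with Rps12, Rps21, Rps28, Rps29, Rpl11, Rpl37a and Rpl38 between them. Rplp0 and Rplp1, the partners of Rplp2 in the stalk, had values of 0.18 and 0.29 and were not called.

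Across the 76 genes the median log2 fold change at E7.5 under Nanog was 0.29, against 0.00 over all genes tested, and 72 values were above 0. The induced pools lay above both controls for 52 members, where 17.5% of all genes did so, and below them for 3, where 27.7% did. The 4 members below 0 were all of the large subunit, with Rpl10 at -0.40, Rpl26 at -0.39 and Rpl21 at -0.28 the lowest. Rpl10, a late-joining protein near the transfer RNA sites, was at 754 and 701 CPM in controls and 550, 649 and 396 CPM in induced pools, and its adjusted p was 0.292. The calls depended on the pools used, and 0 of the 19 was kept in every fit that left out a pool. Without a Nanog E7.5 control 1 control pool remains, so a call lost there does not measure the size of the change. The member median ran from 0.23 to 0.32 over the 5 fits that left out a pool. The Nanog induced pools were also set against the 3 Oct4 E7.5 controls, a choice made after seeing the data. This gave 6 members higher and 10 lower with a median of -0.04, where 1853 of 15777 genes tested were called higher and 1891 lower. Rpsa (0.51) and Rps2 (0.47) stayed higher in that fit, whereas Rps13 was at -0.64. The visceral endoderm markers, the epiblast markers and the short models given above separate the same pools as these calls. Trophoblast markers do so too, at 33.7 and 109 CPM in controls and 195 to 274 in induced pools, as does the share of mitochondrially encoded genes, at 3.27 and 3.59% against 5.22 to 8.20%. Erythroid markers (325 and 353 against 44.0 to 226 CPM) and, more narrowly, heart and neural markers also did not overlap. The part of these differences in the result was not tested.

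**Figure D2:**
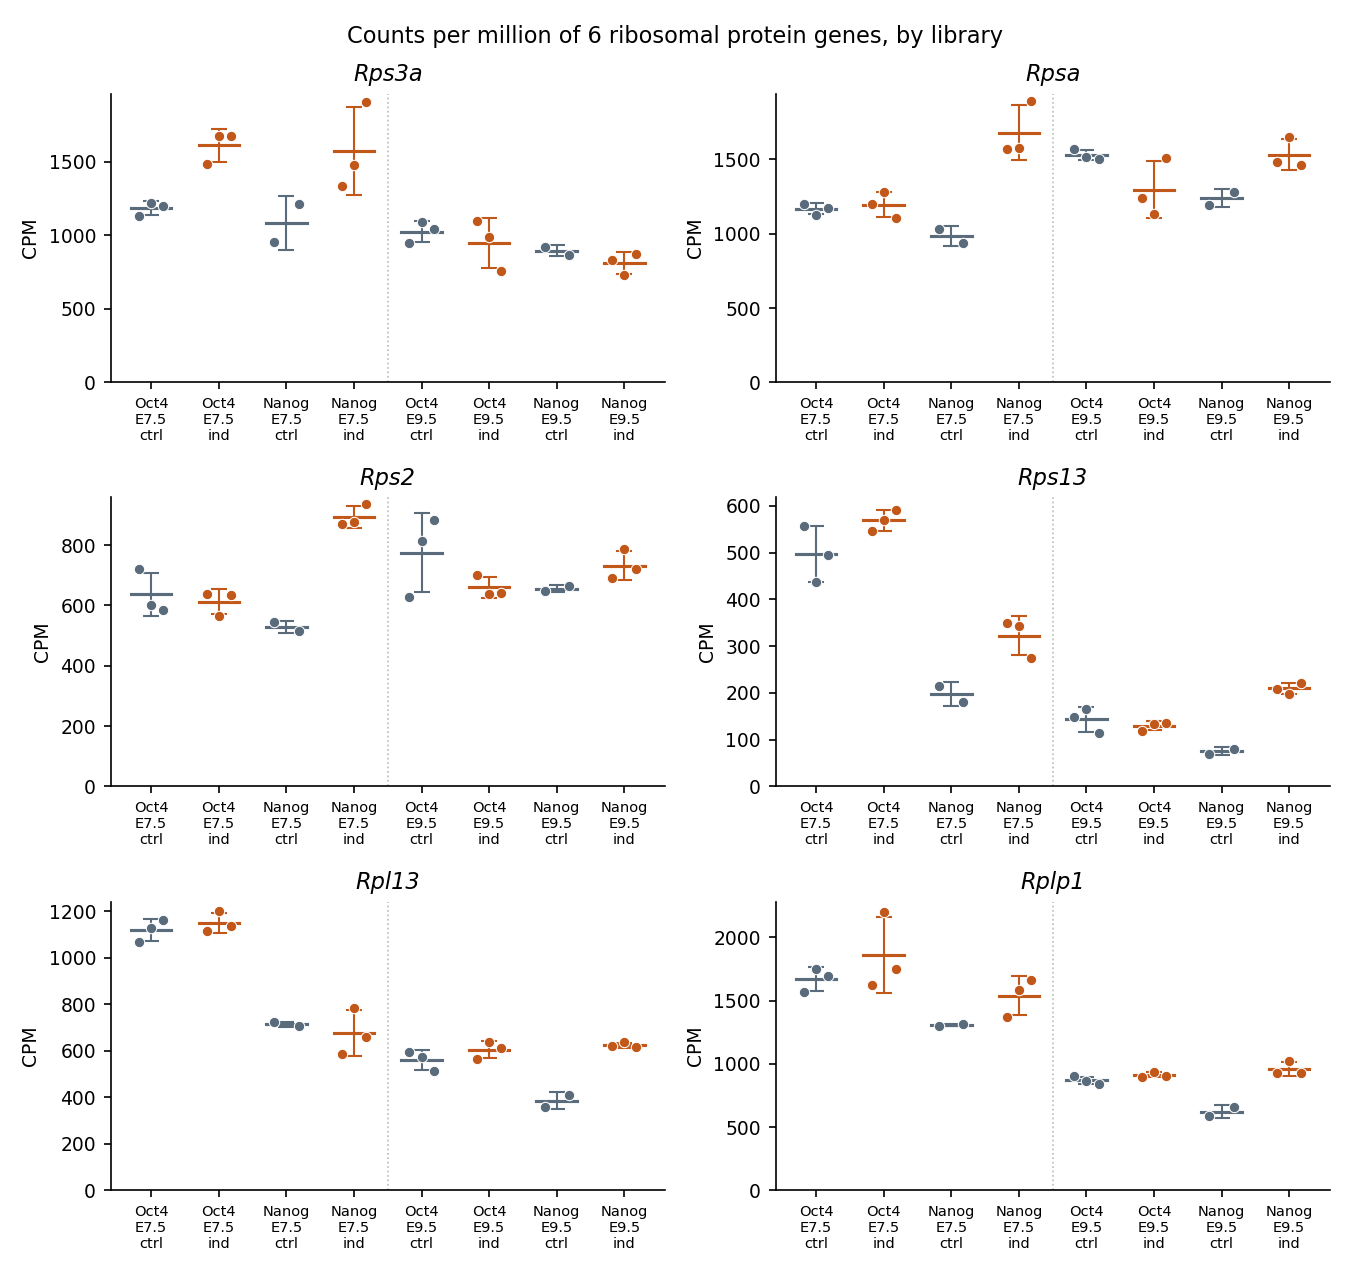
CPM (y axis, from 0) of Rps3a, Rpsa, Rps2, Rps13, Rpl13 and Rplp1 in the 8 groups; points are pools, long bars are means and error bars are SD. Rps3a is higher in Oct4 E7.5 induced pools than in their controls, and the Nanog E9.5 controls are the lowest E9.5 pools for Rps13, Rpl13 and Rplp1.

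The responses of the lines at E7.5 were compared as an interaction over the 4 groups. Rps2 was the 1 member called, with a Nanog response that exceeded the Oct4 response by 0.84 (SE 0.13, edgeR adjusted p = 0.0217), where 0.204% of 16680 genes were called, 0.0659% higher and 0.138% lower. Oct4 E7.5 controls had 719, 603 and 586 CPM of Rps2 and the induced pools 638, 566 and 633 CPM, so those groups overlapped. Rpsa differed by 0.76 between the lines and was not called (adjusted p = 0.0899). The Rps2 call was lost without either Nanog control or without Oct4 induced replicate 3, and when the counts of its processed copies were added to it.

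Induction of Oct4 from E6.5 to E9.5 left the sum of the 76 genes within the spread of the pools and called 6 of them, 3 higher and 3 lower, where 9.29% of 13957 genes were called, 4.69% higher and 4.61% lower. Rps27a, made as a fusion with ubiquitin, fell from 188, 206 and 217 CPM to 159, 167 and 177 CPM (log2 fold change -0.29, SE 0.06, edgeR adjusted p = 0.00438). Its control and induced pools did not overlap, and the call was kept in each of the 6 fits that left out a pool. Other changes were small: Rpl18 at 0.12 and Rpl17 at 0.11 rose, and Rpl30 at -0.20 and Rpl15 at -0.14 fell. With the counts of its processed copies added, Rpl15 turned to 0.30. The median over members was 0.03, and 25 of them had groups that did not overlap, 21 higher (15% of all genes) and 4 lower (12.7%). Rpl3 had the lowest value, -0.68, with 534, 870 and 998 CPM in controls and 555, 471 and 484 CPM in induced pools. Control replicate 1 lay within the induced range, and Rpl3 was not called (adjusted p = 0.256). The higher erythroid markers given above, lower neural markers (278 to 327 CPM in controls, 231 to 236 in induced pools) and a lower mitochondrially encoded share (2.35 to 2.41% against 2.24 to 2.32%) separate the same pools. So do the 5 epiblast markers other than Pou5f1 (118 to 124 CPM in controls, 131 to 151 in induced pools). The rows with the suffix -ps held 0.412 to 0.490% of counts in controls and 0.527 to 0.570% in induced pools. The part of these differences in the calls was not tested.

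Induction of Nanog from E6.5 to E9.5 called 36 of the 76 genes, 25 higher and 11 lower, where 28.4% of 13305 genes were called, 15.4% higher and 13% lower. The median over members was 0.06. The share called higher, 25 of 76, was above its background, and the share called lower, 11 of 76, was near its own. The summed share given above was 7.37% higher in the induced pools as a ratio of means, without overlap. Rps13 had the largest value, with 70.1 and 81.0 CPM in controls and 209, 199 and 221 CPM in induced pools, a log2 fold change of 1.44 (SE 0.08, edgeR adjusted p = 3.56e-09). Rpl36 was at 137 and 166 CPM against 260, 268 and 258 CPM (0.75, SE 0.07, adjusted p = 5.32e-06). Rpl13 was at 359 and 410 CPM against 621, 636 and 616 CPM (0.66, SE 0.06, adjusted p = 4.33e-06). The induced pools of these 3 genes did not overlap with the controls. Rpl12, which sits at the base of the P stalk, rose by 0.62 on the log2 scale.

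All 3 proteins of the P stalk were called higher at E9.5 under Nanog. Rplp1 was at 585 and 658 CPM in controls and 924, 1022 and 926 CPM in induced pools (0.59), Rplp2 at 303 and 313 CPM against 439, 502 and 443 CPM (0.55), and Rplp0 at 1475 and 1564 CPM against 1833, 2062 and 1846 CPM (0.30). Each of the 3 had induced pools above both controls. Rpl35 (0.47), Rpl8 (0.44), Rps16 (0.41), Rps10 (0.36), Rps9 (0.35) and Rpl18 (0.34) followed, and Rpsa was called at 0.27. Among the 11 that fell, Rpl21 was at 72.6 and 72.7 CPM in controls and 48.1, 53.6 and 63.6 CPM in induced pools (-0.43, adjusted p = 0.003). Rpl5, a carrier of 5S ribosomal RNA that also restrains Mdm2, was at -0.30, Rpl34 at -0.28, Rpl31 and Rps24 at -0.27, Rps4x at -0.26, Rpl7 and Rps15a at -0.25, Rpl30 at -0.24, Rps27 at -0.22 and Rpl36a at -0.20. These decreases were smaller than the leading increases.

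For most of the called members the Oct4 pools of the same stage were nearer to the induced than to the control pools of the Nanog line. Rpl13 was at 594, 573 and 512 CPM in Oct4 E9.5 controls, near the Nanog induced pools and above both Nanog controls. Rplp1 was likewise at 902, 860 and 844 CPM in Oct4 E9.5 controls. Of the 36 called members, 28 had a mean in the Oct4 E9.5 controls that was nearer, as a log ratio, to the Nanog induced mean than to the Nanog control mean. The Oct4 E9.5 controls were then set in place of the Nanog controls, a choice made after seeing the data. In that fit 8 members were called, 7 higher and 1 lower, where 146 of all 13463 genes tested were called higher and 244 lower. The member median was 0.10, against 0.00 over all genes tested. Neither Rpl13 (0.15), Rplp1 (0.14), Rpl36 (0.16) nor Rps13 (0.54, edgeR adjusted p = 0.155) was among the 8. Of the 36 calls, 17 were kept in every fit that left out a pool, among them Rps13, Rpl36, Rpl13, Rpl12 and the 3 stalk genes, and without Nanog control replicate 2 the count was 20.

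The fold changes of the Nanog E9.5 comparison varied with base composition. Across the 76 genes, the log2 fold change and the GC content of the longest coding transcript had a Pearson correlation of 0.52 and a Spearman correlation of 0.64, against 0.22 and 0.36 in the Oct4 line at the same stage. For the change from E7.5 to E9.5 in controls, the correlations were -0.36 and -0.44 in the Nanog line and 0.11 and 0.01 in the Oct4 line. That comparison of the Nanog line uses the same E9.5 controls. These points share libraries and members of one gene family and are a description. The 25 genes called higher had a median GC content of 55.0%, the 11 called lower 48.5% and the 40 not called 49.8%. With an offset for the trend with GC in each library, added after seeing the data, 25 members were called, 17 higher and 8 lower. The share of all genes called under that offset is not given here, so the count is not compared with that of the main fit. The summed primitive erythroid markers given above also separate the induced pools from the controls. So do neural markers (261 and 328 CPM in controls, 236 to 254 in induced pools), trophoblast markers (3.32 and 3.68 against 1.55 to 2.72 CPM) and the mitochondrially encoded share (2.79 and 2.85% against 2.20 to 2.41%). The rows with the suffix -ps held 0.345 and 0.344% of counts in controls and 0.379 to 0.442% in induced pools. The part of these differences in the calls was not tested.

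**Figure D3:**
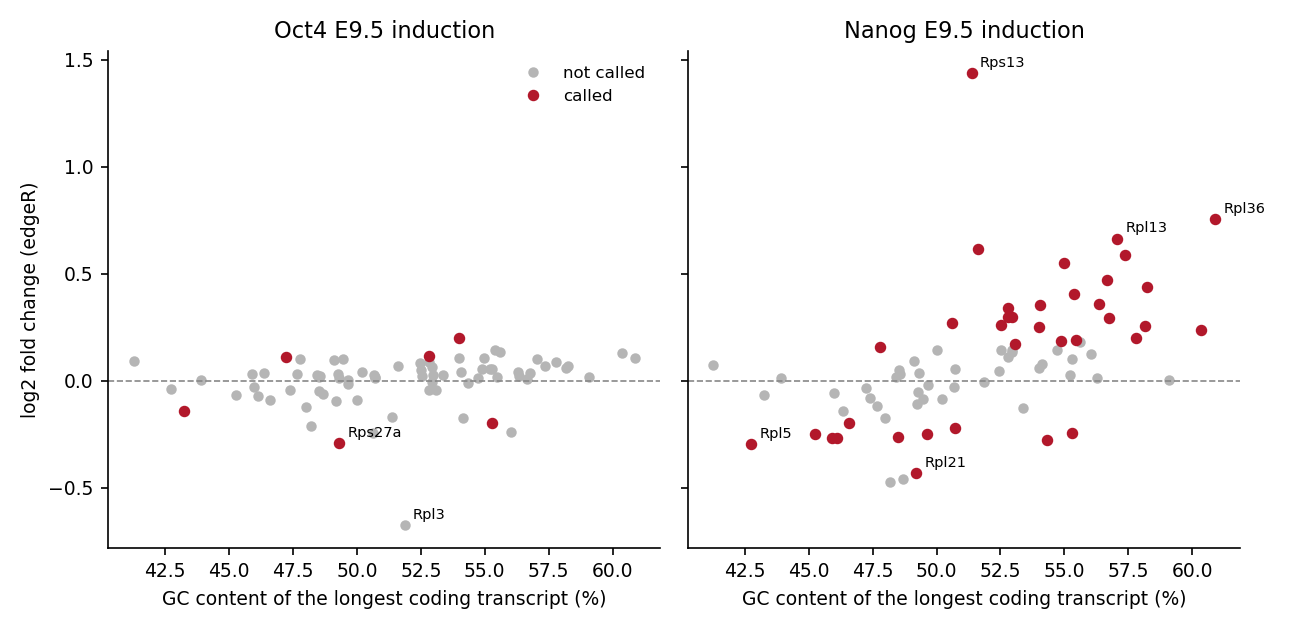
Log2 fold change (y axis) against GC content of the longest coding transcript (x axis, percent) for the 76 genes in the E9.5 inductions of Oct4 (left) and Nanog (right); red points are called at an adjusted p under 0.05. In the Nanog panel Rpl36 and Rpl13 lie at the upper right and Rpl5 at the lower left, with Rps13 at 1.44 apart from the rest.

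The interaction at E9.5 called 24 members, 16 with a higher and 8 with a lower response to Nanog than to Oct4, where 13.5% of 14604 genes were called, 7.92% higher and 5.57% lower. Rps13 differed by 1.60 (SE 0.20, edgeR adjusted p = 0.00231), Rpl36 by 0.64, Rpl13 by 0.56, Rpl12 by 0.55, Rplp1 by 0.52, Rpl35 by 0.46 and Rplp2 by 0.44. On the lower side were Rpl21 (-0.34), Rpl31 (-0.31), Rps4x (-0.28), Rpl34 (-0.27), Rps27 and Rpl7 (-0.24), Rpl23a (-0.19) and Rpl23 (-0.18). Between stages, the response to Nanog at E9.5 was lower than at E7.5 for 23 members and higher for 2, Rpl13 (0.68) and Rps13 (0.67), where 12.8% of 14897 genes were called, 8.02% higher and 4.79% lower. The lowest were Rpl39 (-0.84), Rps2 (-0.69), Rpl31 (-0.67) and Rps24 (-0.65). Of these 25 calls, those of Rps2 and Rpl7a were kept in every fit that left out a pool. The response to Oct4 was lower at E9.5 for Rpl3 (-1.13), Rps3a (-0.60) and Rpl10 (-0.43), where 6.69% of 16359 genes were called, 4.84% higher and 1.85% lower. Of these 3 calls, 0 were kept in every such fit.

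**Figure D4:**
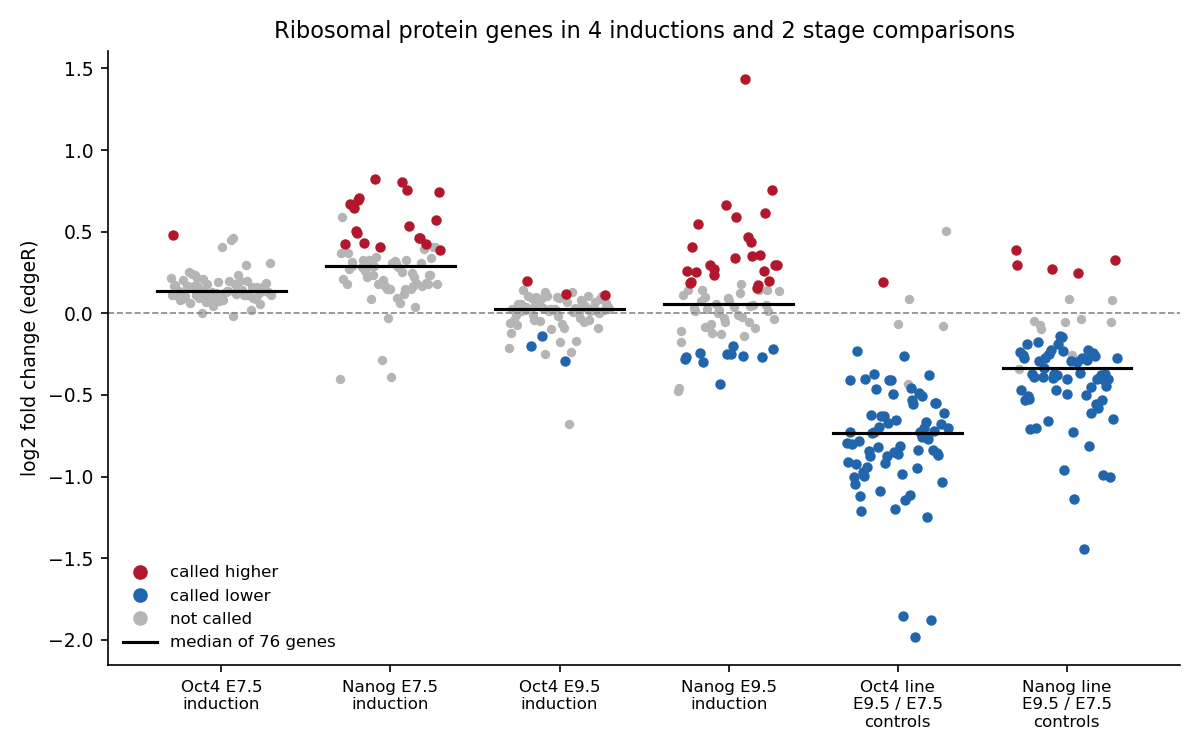
Log2 fold change (y axis) of the 76 genes in the 4 inductions and in the comparison of E9.5 with E7.5 controls of each line; red and blue points are called higher and lower, grey points are not called and black bars are medians. The medians are 0.13, 0.29, 0.03 and 0.06 in the inductions and -0.73 and -0.34 with stage.

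Between the control embryos of E7.5 and E9.5, ribosomal protein genes went down in both lines. In the Oct4 line 70 of 76 fell and 1 rose, where 37.1% and 36.5% of 15770 genes did (73.5% in either direction), with a median log2 fold change of -0.73. In the Nanog line 59 fell and 5 rose, where 32% and 31.8% of 14872 genes did (63.8% in either direction), with a median of -0.34. The median over all genes tested was -0.02 and 0.01. The E9.5 pools lay below the E7.5 pools for 68 members of the Oct4 line (29.8% of all genes) and above them for 3 (47.3%), and for 60 (37.3%) and 7 (45.6%) in the Nanog line. The 57 genes that fell in both lines were 81.4% of those that fell in the Oct4 line and 96.6% of those in the Nanog line. No library enters both stage comparisons. Within each line the stages differ also in pool size, and short models went from 29.0 to 51.9 CPM at E7.5 to 0.634 to 1.23 CPM at E9.5 in Oct4 controls and from 31.3 and 36.8 to 1.42 and 1.70 CPM in Nanog controls. All 7 tissue marker lists separated the stages in both lines. From E7.5 to E9.5 the visceral endoderm markers went from 2824 to 3461 CPM to 36.8 to 62.0 CPM in Oct4 controls and from 2385 and 2565 to 34.2 and 51.4 CPM in Nanog controls. Epiblast, trophoblast and maternal markers were also lower at E9.5, and erythroid, heart and neural markers higher. Heart markers, for example, went from 23.5 to 31.1 CPM to 834 to 979 CPM in the Oct4 line and from 31.5 and 36.7 to 683 and 924 CPM in the Nanog line. The mitochondrially encoded share went from 4.02 to 5.41% to 2.35 to 2.41% and from 3.27 and 3.59% to 2.79 and 2.85%. The part of these differences in the lower ribosomal protein levels was not tested.

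Rps13 fell furthest in both lines, from 557, 437 and 494 CPM to 149, 165 and 115 CPM in the Oct4 line (-1.98, SE 0.15, edgeR adjusted p = 1.62e-05) and from 215 and 180 CPM to 70.1 and 81.0 CPM in the Nanog line (-1.45, SE 0.10, adjusted p = 9.74e-06). Rpl31 was at 179, 228 and 208 CPM and then at 66.1, 63.1 and 63.2 CPM in the Oct4 line (-1.88). Rps27a was at 594, 688 and 643 CPM and then at 188, 206 and 217 CPM (-1.85). In the Nanog line Rps27a was at 289 and 217 CPM and then at 221 and 222 CPM, groups that overlapped. Rplp1 fell by the same amount in both lines, with -1.14 in each, from 1564 to 1749 CPM at E7.5 to 844 to 902 CPM at E9.5 in the Oct4 line. Rplp2 was at -0.94 and -0.70 and Rplp0 at -0.61 and -0.65.

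Few members went the other way. Rpsa was the 1 gene called higher in both lines, from 1199, 1126 and 1176 CPM to 1567, 1518 and 1499 CPM in the Oct4 line (0.19, adjusted p = 0.00473) and from 1032 and 936 CPM to 1196 and 1284 CPM in the Nanog line (0.27, adjusted p = 0.00134). With the counts of all rows of its processed copies added, a choice made after seeing the data, Rpsa was called lower in both, at -0.33 and -0.29. Rpl10, on the X chromosome, rose in the Nanog line (0.39) and fell in the Oct4 line (-0.80), but with all rows of processed copies added it was called lower in the Nanog line as well (-0.22, edgeR adjusted p = 0.00143). Rpl39, also X-linked, was at 0.29 and -0.91. Rpl29 rose in the Nanog line (0.33), and in the Oct4 line it was at 94.99, 193 and 206 CPM at E7.5 and 278, 261 and 267 CPM at E9.5 without being called (0.50, adjusted p = 0.242). The stage changes of the lines had a Pearson correlation of 0.44 and a Spearman correlation of 0.31 across the 76 genes, and 66 had the lower value in the Oct4 line. That difference between the lines was not tested. An offset for transcript length moved the medians to -0.40 and -0.13. As given above, the stage changes of the Nanog line also varied with GC content.

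**Figure D5:**
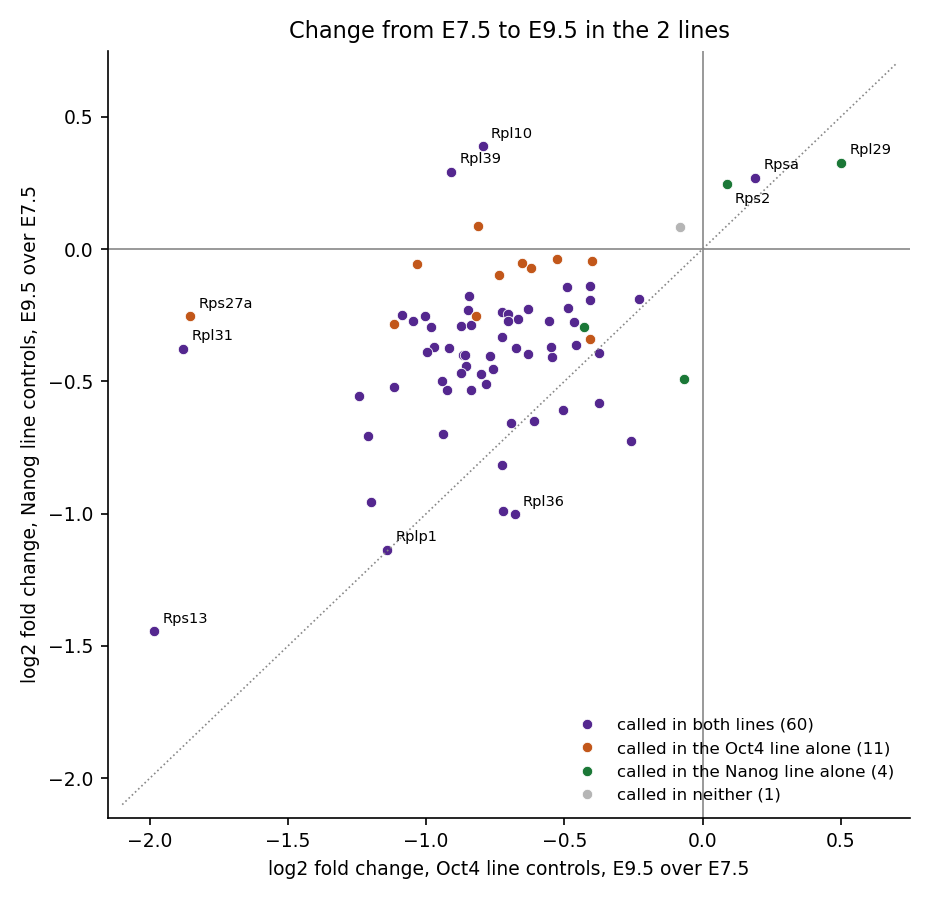
Log2 fold change from E7.5 to E9.5 of the 76 genes in Oct4 line controls (x axis) and Nanog line controls (y axis); colours give the line in which a gene was called and the dotted line marks equal values. Of the 76, 60 were called in both lines, 11 in the Oct4 line alone, 4 in the Nanog line alone and 1 in neither.

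Genes that make or accompany ribosomes were followed beside the members. Of 76 mitochondrial ribosomal protein genes, whose products translate the messages of the mitochondrion, 66 fell and 0 rose with stage in the Oct4 line (median -0.59), and 53 fell and 4 rose in the Nanog line (median -0.34), close to the cytosolic set. In the inductions 0 of them were called for Oct4 at E7.5, 2 rose for Nanog at E7.5 (Mrpl13 at 0.39 and Mrps25 at 0.38), 0 were called for Oct4 at E9.5, and 13 rose and 6 fell for Nanog at E9.5. Of 51 ribosome biogenesis genes, which process ribosomal RNA and assemble subunits, 44 and 45 fell with stage in the Oct4 and Nanog lines and 0 rose, with medians of -0.55 and -0.43. Polr1d, a subunit of RNA polymerases I and III, fell by 1.24 and 0.85 on the log2 scale. At E7.5, 0 of the 51 were called in either induction. At E9.5, 2 fell with Oct4, and 5 rose and 10 fell with Nanog. Of 31 initiation factor genes, 24 and 20 fell and 1 and 2 rose with stage, and Eif4ebp1, the repressor of cap-dependent translation, was at -0.93 and -1.42. At E7.5, 0 of the 31 were called in either induction. At E9.5, 1 rose and 3 fell with Oct4. With Nanog at E9.5, 4 rose and 12 fell, where 15.4% of all genes rose and 13% fell. Of the elongation factor genes, 8 of 10 fell and 1 rose with stage in the Oct4 line, and 6 of 9 fell and 1 rose in the Nanog line. With Nanog at E9.5, 2 of the 9 rose and 3 fell, and 0 were called in the other 3 inductions. Each of these counts is read against the background of the same comparison given above.

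Other messages that start with a pyrimidine run, and the regulators of this class, were followed as well. Of 9 such messages outside the ribosome, 1 was called in each E7.5 induction, where 6.17% (Oct4) and 7.78% (Nanog) of all genes were called. It was Vim, the intermediate filament vimentin (-0.78 with Oct4 and -1.06 with Nanog). With stage 7 fell and 2 rose in the Oct4 line and 5 fell and 2 rose in the Nanog line, with Vim rising in both (1.55 and 1.58). Among 11 genes of the mTOR and Myc pathways, 0 were called with Oct4 at E7.5 and 1 rose with Nanog, Mycl1 (1.09), the gene of the Myc family member L-Myc. Among 11 genes of the p53 response, through which free Rpl5 and Rpl11 signal a defect of ribosome assembly, Pmaip1, a promoter of cell death, was the 1 called at E7.5 in each induction, from a mean of 23.3 to 83.6 CPM with Oct4 (1.88) and from 25.1 to 93.3 CPM with Nanog (1.94). Rpl5 and Rpl11 themselves were at 0.11 and 0.24 with Oct4, without a call, and at 0.26, not called, and 0.43, called, with Nanog. By E9.5, 1 of the 9 messages fell with Oct4 (9.29% of all genes called), and 1 rose and 2 fell with Nanog (28.4%). Of the 11 mTOR and Myc genes 0 were called with Oct4, and 2 rose and 1 fell with Nanog. Of the 11 p53 genes 2 rose with Oct4, and 4 rose and 1 fell with Nanog. With stage, 7 of the mTOR and Myc genes rose and 4 fell in the Oct4 line (73.5% of all genes called). In the Nanog line 5 rose and 4 fell (63.8%).

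A list of 12 members known for a mouse or cell phenotype was followed in the same comparisons. Of these 0 were called with Oct4 at E7.5 (6.17% of all genes), and 3 rose with Nanog at E7.5 (Rpl38, Rpl11 and Rps19), the same proportion as the 19 of all 76 members and above the 2.96% of all genes called higher. At E9.5, 1 fell with Oct4 (Rps27a, against 4.61% of all genes) and 1 fell with Nanog (Rpl5, against 13%). All 12 fell with stage in the Oct4 line, where 70 of all 76 members and 37.1% of all genes fell. In the Nanog line 8 fell and 1 rose, where 59 of the 76 members fell and 5 rose. Of all genes, 32% fell and 31.8% rose there. Rpl38, which is needed for translation of a subset of Hox messages, was at 349, 355 and 370 CPM in Oct4 E7.5 controls and 226, 217 and 229 CPM at E9.5 (-0.87). In the Nanog line it was at 322 and 309 CPM in E7.5 controls, at 403, 371 and 442 CPM after induction and at 236 and 241 CPM in E9.5 controls. Both subunits with other symbols fell with stage. Gnb2l1, the scaffold RACK1, was at -0.67 and -0.46 with stage and called in both lines. Fau, a fusion of Rps30 with a ubiquitin-like protein, fell from a mean of 284 to 62.5 CPM in the Oct4 line (-2.39) and from 122 to 77.4 CPM in the Nanog line (-0.72). Neither was called in the 4 inductions.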

How the data were processed

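The authors deposited RSEM expected counts per gene and library, without normalization as far as the values show; of the values of the 76 genes 82.1% are not whole. The submitters' processing notes list build NCBIM37 and the tools cutadapt, Picard, limma and RSEM 1.17. RSEM divides reads that match several genes, so members and their processed copies can exchange counts. The counter's use of strand and the sequencer of each library are not given in the sources used here. Symbols, coordinates and exonic lengths came from the GENCODE mouse annotation of Ensembl release 65. Counts were rounded and tested with the quasi-likelihood test of edgeR 4.0.16 in R 4.3.3 (TMM scaling, filterByExpr, robust dispersions), fitted over all genes of the groups compared, with Benjamini-Hochberg adjustment; genes were called at an adjusted p under 0.05, two-sided. Interactions were fitted over 4 groups. Levels are CPM of the unrounded counts. Shares were tested by exact permutation over pools. DESeq2 1.42.0, other scalings, filters and offsets, added pseudogene counts and each left-out pool were tried as alternatives. The fits were tested on simulated data. The members, the gene lists and the rule for named genes (the P stalk and Rpsa, the 5 highest and 5 lowest per comparison, called members, the extremes per length, members with a phenotype, and up to 4 called genes per other list) were chosen with earlier results of these data known. Rps4l, Noc2l, Sox1 and Tfap2c were not matched. Each of the 20 pairs of libraries within a group differed by more than sampling noise (chi-square at least 1.6 times its degrees of freedom). A few genes are not reported here by name, and the summed primitive erythroid markers leave out 1 gene of the original list.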

Additional observations from a re-analysis of the deposited data

Results flagged for a closer look

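The 14 results listed here are calls of the interaction test of edgeR, between the lines or between the stages. Where an interaction called more than 5 members, only the 5 with the lowest p are listed. Such were the interaction at E9.5, with 24 calls, and the stage difference of the Nanog response, with 25. At E7.5 the response of Rps2 to Nanog exceeded that to Oct4 by 0.84 on the log2 scale. At E9.5 the 5 lowest p-values among the members belonged to Rpl12 (0.55), Rpl36 (0.64), Rplp1 (0.52), Rpl35 (0.46) and Rplp2 (0.44), each with a higher response to Nanog. Between the stages, the response to Oct4 was lower at E9.5 for Rpl10 (-0.43), Rpl3 (-1.13) and Rps3a (-0.60). Among the 25 calls of the Nanog response, the 5 lowest p-values belonged to Rps2 (-0.69), Rpl7a (-0.54), Rpl9 (-0.42), Rps24 (-0.65) and Rpl39 (-0.84), all lower at E9.5. Neither the Rps2 call at E7.5 nor any of the 3 calls of the Oct4 response was kept in every fit that left out a pool. The groups hold 2 or 3 pools, too few for a test of single pools as outliers.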

How the results depend on the processing

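Of 66 settings that moved a summary value, most concern counts of called members in the inductions; 236 left the value within bounds. Results for single named genes were labelled the same in 1171 of the comparisons with an alternative, lost the call in 136, gained it in 36 and reversed in 16. A reversal was counted only where the gene was called in the main fit or in the alternative. The 1171 therefore include changes of sign in genes called in neither, such as Rpl10 and Rpl39 in Nanog E9.5 against the Oct4 controls. For the Oct4 E7.5 induction the count of 1 became 2 with no low-count filter, with 1 model over all 22 libraries, with the length offset and with the GC offset, and 3 with DESeq2. For Nanog E7.5 the count of 19 became 31 with no filter (30 higher, 1 lower), 35 with 1 model over all libraries, 11 with the length offset and 36 with DESeq2 (35 higher, 1 lower). For Oct4 E9.5 the count of 6 became 1 in that model and 3 with DESeq2, and for Nanog E9.5 36 became 15 in that model and 8 against the Oct4 controls. For the interactions, the count at E7.5 (1) became 3 with no filter, 4 in that model, 0 with pseudogene counts added and 3 with the length offset, the count at E9.5 (24) became 3 in that model and the stage difference of the Oct4 response (3) became 1 in it. The length offset moved the medians to -0.012 (Oct4 E9.5), 0.012 (Nanog E9.5), -0.40 and -0.13 (Oct4 and Nanog stage), the GC offset moved that of Nanog E9.5 to 0.011, no filter moved that of the Oct4 stage comparison to -0.80, and the Oct4 controls moved those of Nanog E7.5 and E9.5 to -0.042 and 0.10. As log2 ratios, the summed shares became 0.028 for Oct4 E9.5 with pseudogene counts, and with TMM-scaled CPM -0.011 for Oct4 E9.5, 0.055 for Nanog E9.5, -0.65 for the Oct4 and -0.33 for the Nanog stage comparison.

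Leaving out each pool in turn gave counts of 0 to 3 (Oct4 E7.5), 1 to 22 (Nanog E7.5), 2 to 6 (Oct4 E9.5), 20 to 41 (Nanog E9.5), 0 to 3 and 14 to 25 (interactions at E7.5 and E9.5), 0 to 4 and 5 to 30 (stage differences of the Oct4 and Nanog responses), 71 to 72 and 62 to 67 (stage comparisons). Member medians ran from 0.018 to 0.23, 0.23 to 0.32, 0.02 to 0.04, 0.030 to 0.084, -0.82 to -0.71 and -0.39 to -0.30 in the 4 inductions and 2 stage comparisons, and log2 ratios of the summed share from 0.03 to 0.17, 0.19 to 0.26, -0.01 to 0.02, 0.075 to 0.13, -0.50 to -0.46 and -0.30 to -0.24. Where a Nanog control is left out, the remaining pool is assumed to vary like the other group.

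Named genes that reversed did so in few settings. Rpl15 at Oct4 E9.5 was at 0.30 and 0.24 with pseudogene counts added (named or all), and with all of them Rpsa was at -0.33 and -0.29 in the stage comparisons and Rpl10 at -0.22 in that of the Nanog line. Rpl17 was at 0.40 in the Oct4 stage comparison with the length offset. Against the Oct4 controls Rpl27a was at -0.30, Rps13 at -0.64 and Rpl35 at -0.20 in Nanog E7.5, and Rps4x at 0.094, Rpl7 at 0.076, Rps24 at 0.10, Rps15a at 0.019, Rps27 at 0.20, Rpl31 at 0.12 and Rpl36a at 0.021 in Nanog E9.5. The cause was not tested. The GC offset, the addition of all pseudogene rows and the other line's controls were chosen after seeing the data.

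Same-numbered pools of the Oct4 line at E7.5 had correlations of 0.14, 0.151 and 0.015 between their deviations from the group means, so the numbers were not taken to pair the pools, though each pool correlated best with its own number, a hint from the data and not from the design. With a replicate block the count was 5 for Oct4 E7.5, 31 for Nanog E9.5 (20 higher, 11 lower), 71 and 64 for the stage comparisons. No paired analysis was possible for Oct4 E9.5 and Nanog E7.5 because their groups share fewer than 2 numbers.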

Other observations

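The paralogs of the ribosomal protein genes, which were not among the 76, followed the stage change in the Oct4 line. There Rps27l, a p53-responsive copy of Rps27, went from a mean of 216 to 110 CPM (log2 fold change -1.17), Rpl36al from 296 to 159 CPM (-1.10) and Rpl22l1, the paralog of Rpl22, from 282 to 165 CPM (-0.97), all called by edgeR. In the Nanog line Rpl36al (-0.52) and Rps27l (-0.35) were called, while Rpl22l1 was at 211 CPM at E7.5 and 241 CPM at E9.5 and was not called. With Nanog at E9.5, Rpl22l1 fell to 168 CPM from the 241 CPM of the controls (-0.56, edgeR adjusted p = 0.0051), and Rps27l was at -0.26 in the same comparison. Rpl10l, the copy of Rpl10 known from the germ line, was at a mean of 0.596 CPM in Oct4 E7.5 controls and had no counts in Oct4 E9.5 controls.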
